A study of Mus musculus with 2 samples.

Results

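The genes described here are Nr2f1, Nr2f2 and Sp8, 3 transcription factors known for positional patterning of the embryonic telencephalon. They were taken by symbol, and each symbol stood for 1 row with 1 Ensembl identifier among the 28001 features of the first scRNAseq library and the 32286 features of the second. The first library was prepared from explants encompassing the septum, the rostromedial wall of the telencephalon, and pooled 8 PGKCre;Rosa26YFP embryos at E11.5 with 4 Dbx1Cre;Rosa26tdTomato embryos at E12.5, each from 2 litters. In PGKCre;Rosa26YFP embryos the promoter that drives Cre is broadly active, so that YFP can mark any tissue, whereas Dbx1Cre;Rosa26tdTomato labels cells with a history of Dbx1 expression. The second library came from the entire telencephalic vesicle of 3 wild-type embryos from 2 litters, which the labels place at E12 and the methods of the study between E11.5 and E12. All embryos were of the C57BL/6J strain, and both libraries are labelled as wild-type. Each condition was thus 1 pooled library in which embryos could not be told apart, and no test or p-value was computed from cells. Intervals are 95% and cover counting error only.

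Nr2f1 and Nr2f2, also known as COUP-TFI and COUP-TFII, are closely related orphan receptors of the nuclear receptor superfamily. Nr2f1 is known for a cortical gradient that is high caudolaterally and low rostrally, and Nr2f2 for ventral and caudal telencephalic domains and for derivatives of the caudal ganglionic eminence. Sp8 is a zinc finger factor of the Sp family that is known to act around the rostral patterning centre, where Fgf8, Fgf17 and Fgf18 are secreted, and it is also used as a marker of GABAergic lineages of the lateral and caudal ganglionic eminences. In the areal patterning of the cortex, the rostral FGF signal is known to act in opposition to Nr2f1.

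On GRCm38, Nr2f1 (ENSMUSG00000069171) lies on the minus strand at chr13:78188973-78199757, Nr2f2 (ENSMUSG00000030551) on the minus strand at chr7:70351944-70366735, and Sp8 (ENSMUSG00000048562) on the plus strand at chr12:118846329-118852576. They have 6, 6 and 2 annotated transcripts. Because Nr2f1 and Nr2f2 are so alike, the stretch around their longest identical coding run, 59 bases in the DNA-binding domain, is printed here with the bases that differ in capitals. It spans coding positions 217 to 305 of Nr2f1 and 205 to 293 of Nr2f2, counted from 1 at the first base of the start codon, and 13 of its 89 bases differ.

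Nr2f1 coding: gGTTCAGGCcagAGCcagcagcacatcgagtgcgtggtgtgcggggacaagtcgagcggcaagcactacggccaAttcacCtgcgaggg

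Nr2f2 coding: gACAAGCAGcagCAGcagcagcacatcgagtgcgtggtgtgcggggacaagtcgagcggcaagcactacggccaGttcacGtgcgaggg

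Over all annotated transcripts, 56 distinct 25-base words were shared, which was 1.10% of those of Nr2f1 and 0.656% of those of Nr2f2. None of them lay within the last 500 bases of the transcript with the longest coding part, the end that a 3′ kit reads. Sp8 shares no name or family with them, and the 250 bases before 1 of its annotated starts (RefSeq, GRCm38.p6, plus strand, chr12:118846983-118847232) are shown because they hold a letter match for each of the factor families described here. Capitals mark AGGTCA, a core recognised by nuclear receptors, which lies here on the reverse strand as TGACCT, and GGGCGG, the GC box recognised by Sp factors.

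Sp8 upstream: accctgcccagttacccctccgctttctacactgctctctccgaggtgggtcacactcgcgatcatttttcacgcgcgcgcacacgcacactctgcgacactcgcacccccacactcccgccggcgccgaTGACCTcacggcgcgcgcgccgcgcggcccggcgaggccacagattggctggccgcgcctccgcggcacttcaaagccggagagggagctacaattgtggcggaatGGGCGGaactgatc

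The window was 67.2% G and C and held 32 CpG. It precedes an inner start and lies inside the Sp8 gene as placed above, not upstream of the whole gene. On either strand, and not overlapping each other, AGGTCA was found in 14.02% and GGGCGG in 32.7% of the 32851 windows of the same length, and CCGGAA, the core recognised by ETS factors such as Etv4 and Etv5, which was not found in this window, in 12.03%. The other annotated Sp8 starts and that of Nr2f2 held none of the 3 motifs in their windows. Of the 2 Nr2f1 windows, which lie within annotated transcripts, 1 held GGGCGG and the other none. A match is a description of letters and says nothing of binding.

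The deposited counts are unique molecular identifiers (UMIs) per gene and barcode, with 83103280 UMIs over 5827 barcodes in the septal explants and 194821794 over 14283 in the telencephalic vesicle. After filtering, 5384 and 11707 cells were kept, with a median of 12868.5 and 9032 UMIs, and 1 barcode sequence occurred in both libraries. Clusters were built without the 3 genes, without the 9 annotated genes within 20 kb of them and without cell cycle genes, and were named from marker lists as apical progenitors (APs), basal progenitors (BPs), neurons and non-neural cells. Class names stand for likeness to these markers. Levels are CPM, the UMIs of a gene per 1000000 UMIs of the summed cells of a class,, and were compared neither between genes nor between libraries, since a 3′ count depends on the transcript end and the libraries differ in kit and counting software. Erythroid cells, which should lack all 3 genes, gave the background. In the septal explants 26 of them at a median of 29045.5 UMIs held no UMI of Nr2f1 or Nr2f2, where a floor of 3 counts leaves room for a share of 11.54%, and Sp8 in 23.1% (8.97% to 43.7%) at 20.6 CPM (11.52 to 33.9). Of these 15 Sp8 UMIs, 6 were in 1 cell. In the telencephalic vesicle 400 of them at a median of 5428.5 UMIs held Nr2f1 in 8.25%, Nr2f2 in 4.75% and Sp8 in 0.5%, at 19.04, 11.4 and 1.04 CPM.

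In the septal explants, Nr2f1 was found in 186 of 5384 cells (3.46%) with 318 UMIs, Nr2f2 in 100 cells (1.86%) with 209 UMIs, and Sp8 in 2499 cells (46.4%) with 4924 UMIs. No cell held more than 12 UMIs of any of them. The highest levels of Nr2f1 and Nr2f2 were not in neural cells but in a cluster of 44 non-neural cells with leading genes of mesenchyme (Col3a1, Lum) and macrophages (C1qb, Fcer1g), at 77.9 CPM (59.7 to 99.8) and 136.9 CPM (112.4 to 165.2), where Sp8 was 5.02 CPM. These cells held 62 of the 318 Nr2f1 UMIs and 109 of the 209 Nr2f2 UMIs.

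Septal APs were named from the markers Fgf8, Fgf17, Fgf18, Zic1, Zic4 and Six3. Among them Nr2f1 was scarce, with 4 UMIs in 727 cells (0.389 CPM, 0.106 to 0.995), and Nr2f2 had 3 UMIs. Pallial APs were higher in Nr2f1, with 73 UMIs in 946 cells (4.30 CPM, 3.37 to 5.40). Their 15 Nr2f2 UMIs (0.883 CPM) lay in 7 cells, beside 3 cells of the septal APs. The 4 pallial AP clusters ranged from 2.01 to 7.81 CPM of Nr2f1, with the highest in a cluster led by Aldoc and Dct. The septal level of Nr2f1 was 0.0904 times the pallial one (0.0240 to 0.242), a difference of at least 2-fold downwards that 2.69% of the 11135 genes with at least 50 UMIs in both groups together also showed. Subpallial APs had 18 Nr2f1 UMIs in 1006 cells (1.17 CPM), 0.273 times the pallial level (0.153 to 0.462), beside 2.8% of 11270 genes at least 2-fold lower. Nr2f2 fell under the 50 UMIs in both comparisons, with 1 UMI in the subpallial APs. The order pallial, subpallial, septal for Nr2f1 had intervals that did not overlap between the pallial and the other APs, while those of subpallial and septal APs did.

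The neurons of the septal explants differed more. A pallial glutamatergic cluster of 99 cells with leading genes Neurod6 and Neurod2 held Nr2f1 at 38.0 CPM, whereas the other pallial glutamatergic cluster, 156 cells with leading genes Barhl2 and Uncx, held 2.43 CPM. A cluster of 241 neurons that met no type, with leading genes Tfap2e, Calb2 and Ebf1, had 14.9 CPM (11.0 to 19.7). Septal glutamatergic neurons had 1 Nr2f1 UMI in 259 cells and GABAergic neurons 1 in 167 cells. Cajal-Retzius cells, the early Reln-expressing neurons of the marginal zone, were the neurons with the highest Nr2f2, with 40 UMIs in 214 cells (15.6 CPM, 11.1 to 21.2). Of their 2 clusters, the one with leading genes Lhx1 and Trp73 had 17.1 CPM of Nr2f1 and 22.9 CPM of Nr2f2, and the one with leading genes Ccno, Mcidas and Foxj1, which are known from multiciliated cells, had 0 and 6.88 CPM. All neurons as 1 group were 4.27 times the APs for Nr2f1 (9.48 against 2.22 CPM, 3.30 to 5.54) and 6.77 times for Nr2f2 (4.08 against 0.603 CPM, 4.29 to 10.9), where 17.9% of 12685 genes were at least 2-fold higher. The hem, the caudomedial Wnt and Bmp source that also gives rise to Cajal-Retzius cells, had 12 Nr2f2 UMIs in 109 cells (6.73 CPM, 3.48 to 11.8) and the choroid plexus 9 in 71 cells (9.63 CPM, 4.40 to 18.3), and both intervals lay above that of the pallial APs.

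Sp8 was broad in the same explants, and between septal and pallial APs it went the other way from Nr2f1. Septal APs had 117.7 CPM (111.2 to 124.6) with Sp8 in 73.2% of cells, the hem 113.8 CPM (98.7 to 130.6) with 75.2%, pallial APs 75.5 CPM (71.5 to 79.8) with 63.6%, and subpallial APs 49.8 CPM (46.4 to 53.5) with 45.1%. The intervals of septal APs and hem overlapped, and those of pallial and subpallial APs stood apart from each other and from both. The 3 septal AP clusters were at 103.4, 118.6 and 134.9 CPM, all above the 4 pallial AP clusters at 65.0 to 91.8 CPM and the 5 subpallial ones at 44.6 to 56.1 CPM. With every cell thinned to 8000 UMIs, the shares were 56.3%, 57.8%, 41.6% and 29.4% in the same order, against 19.2% in erythroid cells.

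Levels of Sp8 were lower in BPs (40.8 CPM) and in neurons (26.9 CPM), where the level was 0.356 times that of APs (0.319 to 0.396), beside 16.6% of genes at least 2-fold lower. Among neurons, 167 GABAergic cells stood apart with 110.6 CPM (96.1 to 126.5) and Sp8 in 59.3%. Of them, 154 held Isl1, a gene of striatal and septal neurons, without Lhx6, a gene of medial ganglionic eminence neurons. These 154 had 101.3 CPM (87.1 to 117.2), while 8 cells with neither gene had 338.1 CPM (220.9 to 495.4) on 26 UMIs. The counts of all GABAergic neurons gave 15.7 times the level of pallial glutamatergic neurons (10.0 to 25.9), whose own Sp8 was under the erythroid level. Beside this, 3.06% of 7682 genes were at least 2-fold higher. Nr2f1 was 0.0285 times the pallial glutamatergic level (0.000708 to 0.165), beside 5.15% of genes at least 2-fold lower. Pallial glutamatergic neurons (7.03 CPM, 4.35 to 10.8, 7.84% of cells) and the neurons without a type (9.44 CPM, 10.8%) were below the level and share of the erythroid cells, which are deeper. Their Sp8 was therefore not told apart from background, though the few erythroid cells could not show how much of it was background. Septal glutamatergic neurons (22.5 CPM, 17.5 to 28.6, 23.2%) lay above these neurons, though within the wide interval of the erythroid cells, and Cajal-Retzius cells (15.2 CPM, 10.8 to 20.8, 14.02%) lay between. Accordingly, nothing was read from the 2.16-fold difference between Cajal-Retzius cells and pallial glutamatergic neurons, a size reached upwards by 6.84% of 8236 genes.

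**Figure D1:**
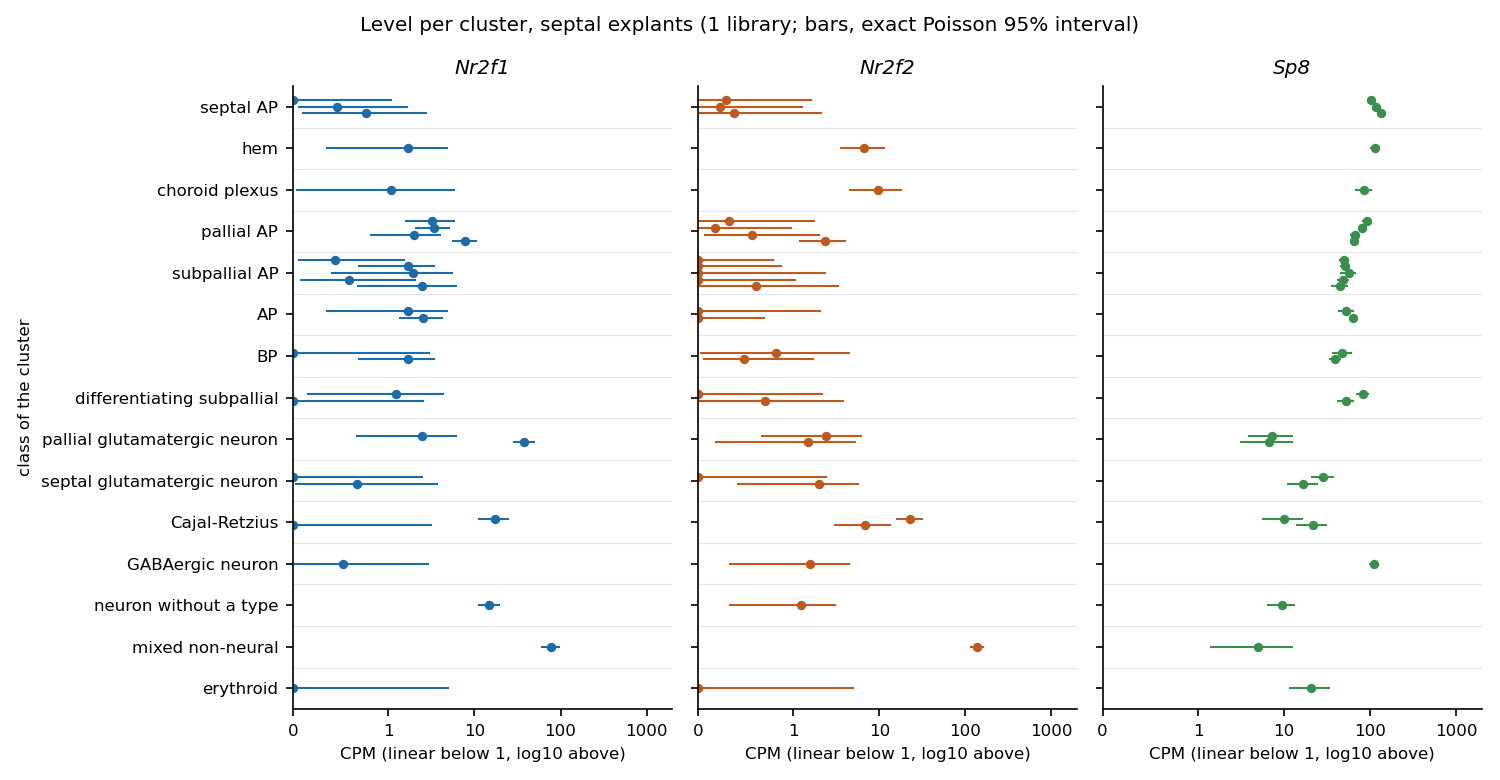
Level of Nr2f1, Nr2f2 and Sp8 in each cluster of the septal explants, with the class of the cluster on the vertical axis and CPM on a horizontal axis that is linear below 1 and log10 above. Points are clusters and bars are exact Poisson 95% intervals. Sp8 lies between 103.4 and 134.9 CPM in the 3 septal AP clusters, where Nr2f1 and Nr2f2 are under 1 CPM.

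In the telencephalic vesicle, Nr2f1 was found in 6529 of 11707 cells (55.8%) with 58680 UMIs, Nr2f2 in 5138 cells (43.9%) with 40232 UMIs and Sp8 in 2047 cells (17.5%) with 4979 UMIs. The most UMIs in 1 cell were 261, 179 and 24. Outside the neural tissue, 492 mesenchymal cells had 311 CPM of Nr2f1 and 442 CPM of Nr2f2, found in 85.0% and 90.9% of cells, and 1.31 CPM of Sp8. Over the APs, summed levels were 350.4 CPM of Nr2f1, 198.5 of Nr2f2 and 31.3 of Sp8, and each hid a wide range among clusters, from 25.2 to 1018 CPM for Nr2f1, from 16.3 to 911 for Nr2f2 and from 1.80 to 113.2 for Sp8.

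For Nr2f1, the APs named after the ventral pallium (VP) had 801.7 CPM (786.1 to 817.4) with Nr2f1 in 94.5% of 604 cells. Their 1 cluster met 3 of the 5 listed VP markers (Sfrp2, Tgfa, Fgf7, Nrg3 and Pax6), with none of them among its 10 leading genes. Pallial APs had 397 CPM (390.1 to 404.4) with 69.5%, subpallial APs 355 CPM (348.8 to 361.0) with 60.9%, the hem 178 CPM (170.0 to 186.1) with 61.9%, and septal APs 27.6 CPM (25.4 to 30.0) with 20.1%. None of these neighbours in the order overlapped within counting error. In septal APs, 4.28% of cells thinned to 3500 UMIs held Nr2f1 against 3.92% of erythroid cells, so that their level was close to the background. VP over pallial APs was 2.02-fold (1.97 to 2.07), beside 3.34% of 13050 genes at least 2-fold higher. No cluster met the VP name at a clustering resolution of 0.8, with another seed or with cell cycle genes kept, so that VP values belong to 1 cluster at the settings used. Septal over pallial APs was 0.0695-fold (0.0638 to 0.0756), a drop of at least 2-fold that 2.49% of 13637 genes shared. The hem was at 0.448 times the pallial level (0.427 to 0.470), beside 3.87% of 13105 genes lower.

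The subpallial name covered unlike clusters for Nr2f1. The largest 3, with 695, 1004 and 341 cells, had 183, 285 and 178 CPM, a cluster of 279 cells with leading genes Hhip and Nkx6-2 had 495 CPM, and a cluster of 243 cells with leading genes Mctp1, Igfbp5 and Ptx3 had 1018 CPM, the highest of all clusters. AP clusters without a regional name were also high, namely a cluster of 400 cells with leading genes Foxb1, Gdf10 and Sfrp2 at 631 CPM and a cluster of 361 cells with Gsx2 among its leading genes at 506 CPM. The first of these met only 2 of the 8 general AP markers and counted as AP through a regional marker list. The summed subpallial level was 0.893 times the pallial one (0.871 to 0.916), 1.06 times with another random seed of the clustering, 0.718 times with cell cycle genes kept and 0.582 times with neighbouring genes kept, so that it had no stable direction.

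Nr2f2 followed Nr2f1 in the VP and at the septum and departed from it at the hem. VP APs had 372 CPM (361.2 to 382.6) with Nr2f2 in 74.5% of cells, pallial APs 81.3 CPM (78.1 to 84.6) with 35.2%, and septal APs 16.4 CPM (14.7 to 18.2) with 13.8%. The last share was 3.495% after thinning, below the 3.92% of erythroid cells, and was read as background. VP over pallial APs was 4.57-fold (4.35 to 4.80), and septal over pallial APs was 0.201-fold (0.179 to 0.225). The hem, however, had 299.6 CPM (289.3 to 310.2) with Nr2f2 in 80.2% of cells, 3.68 times the pallial level (3.49 to 3.89), where 6.42% of genes were at least 2-fold higher and where Nr2f1 was lower. The choroid plexus, which forms next to the hem, kept Nr2f2 at 374 CPM with 81.9% of cells while Nr2f1 was 35.7 CPM, 0.201 times the hem (0.170 to 0.235), beside 3.11% of 11587 genes lower. The highest Nr2f2 level of all clusters, 911 CPM, was in the Foxb1 and Gdf10 cluster, followed by 730.3 CPM in the Mctp1 and Igfbp5 cluster. Of the other 4 subpallial clusters, the one with leading genes Hhip and Nkx6-2 had 307 CPM. The largest 3, with 695, 1004 and 341 cells, had 75.1, 85.8 and 69.3 CPM, beside 78.0 and 90.8 CPM in the pallial AP clusters. The summed subpallial over pallial level was 2.19-fold (2.09 to 2.30), beside 5.96% of 14049 genes at least 2-fold higher. This fold was 0.668 when the genes within 20 kb were kept in the clustering, so that it had no stable direction, and the cause was not tested.

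From VP to septal APs, Sp8 went the other way from both receptors. In the hem its summed CPM was somewhat above the pallial level, by less than that of Nr2f2, and its share of cells was not higher. Septal APs had 81.6 CPM (77.8 to 85.6) with Sp8 in 64.2% of 897 cells, the hem 56.6 CPM (52.2 to 61.3) with 45.5% and pallial APs 48.7 CPM (46.3 to 51.3) with 48.2%. VP APs had 4.28 CPM (3.21 to 5.58) with 6.46%, and subpallial APs 3.32 CPM (2.76 to 3.96) with 3.98%. The intervals of VP and subpallial APs overlapped, and those of hem and pallial APs did not. Of the 2 septal AP clusters, the one with leading genes Fgf17, Fgf8 and Fgf18 had 113.2 CPM and the other, with Etv4 and Fgf15 among its leading genes, 61.6 CPM. The latter met 3 of the 6 septal markers, with none of them among its leading genes. The pallial AP clusters had 52.6 and 37.8 CPM, and all 5 subpallial AP clusters lay between 1.82 and 7.21 CPM. The interval of the higher pallial cluster (49.6 to 55.7) overlapped that of the hem. Subpallial over pallial APs was 0.0681-fold (0.0562 to 0.0819), beside 3.83% of genes at least 2-fold lower, and VP over pallial APs was 0.0878-fold (0.0656 to 0.115), beside 3.13%. The subpallial interval overlapped that of the erythroid cells (0.214 to 3.04 CPM), and that of VP APs lay just above it. The size of the subpallial ratio thus rests on a level not told apart from background. In the septal explants the same subpallial over pallial ratio of Sp8 was 0.659 (0.602 to 0.722). The thinned shares of the vesicle were 24.1% of septal, 15.2% of pallial, 0.667% of VP and 1.11% of subpallial APs, against 0 of the erythroid cells.

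**Figure D2:**
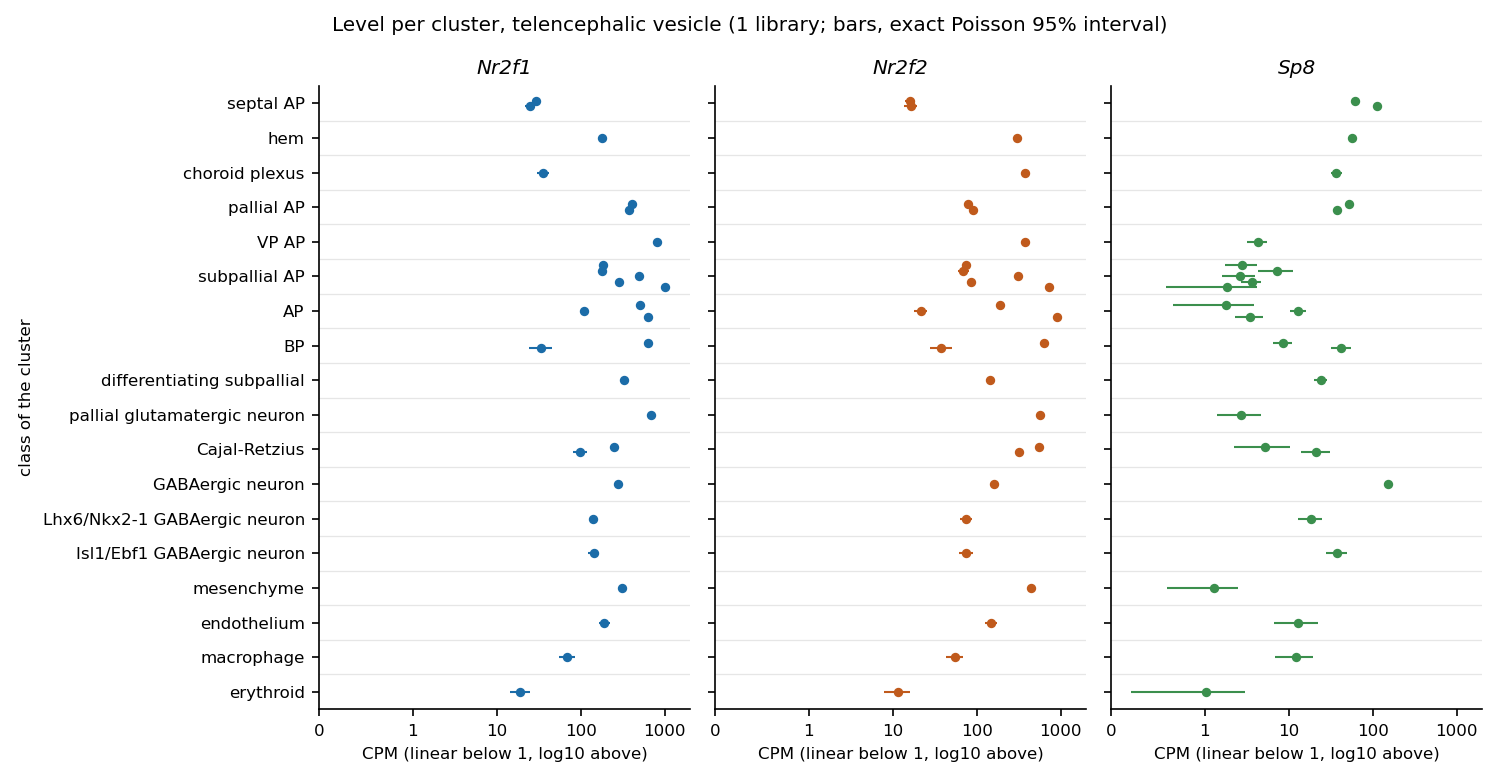
Level of Nr2f1, Nr2f2 and Sp8 in each cluster of the telencephalic vesicle, with the class of the cluster on the vertical axis and CPM on a horizontal axis that is linear below 1 and log10 above. Points are clusters and bars are exact Poisson 95% intervals. Septal APs lie lowest among AP classes for Nr2f1 and Nr2f2 and highest for Sp8, and VP and subpallial APs lie under 10 CPM of Sp8.

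BPs, the intermediate progenitors between APs and glutamatergic neurons, had 535 CPM of Nr2f1 and 538 of Nr2f2 in the vesicle. Over pallial APs this was 1.35-fold for Nr2f1 (1.30 to 1.40) and 6.62-fold for Nr2f2 (6.29 to 6.96), where 9.55% of 13056 genes were at least 2-fold higher, and 0.284-fold for Sp8 (0.232 to 0.345), where 8.45% were lower. The 2 BP clusters were unlike each other. That of 668 cells with leading genes Eomes, Neurog2 and Neurod4 had 630.1, 632 and 8.52 CPM of Nr2f1, Nr2f2 and Sp8, and that of 150 cells with leading genes Onecut1, Onecut2 and Onecut3 had 33.3, 38.1 and 42.1 CPM. The second met all 8 BP markers but had none of them among its 10 leading genes, several of which also led a septal glutamatergic cluster of the explants.

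Among the neurons of the vesicle, 558 pallial glutamatergic neurons had 680.1 CPM of Nr2f1 (82.6% of cells) and 569 CPM of Nr2f2 (68.8%), while Sp8 had 12 UMIs in all (2.69 CPM). GABAergic neurons were lower in both receptors, at 0.279 times for Nr2f1 (0.260 to 0.300) and 0.187 times for Nr2f2 (0.171 to 0.205), beside 4.22% of 10583 genes at least 2-fold lower, and 26.7 times as high in Sp8 (71.8 CPM, 15.1 to 52.1), beside 5.48% higher. The pallial glutamatergic class did not form at a resolution of 0.8 or with another seed. Its Sp8 interval (1.39 to 4.70) overlapped that of the erythroid cells (0.214 to 3.04), so that the size of the Sp8 ratio rests on a level not told apart from background. Sp8 also divided the GABAergic neurons. The cluster with Dlx6os1, Sp9 and Gad1 among its leading genes had 153 CPM (136.3 to 171.4) with Sp8 in 54.5% of 297 cells, and it did not form as a class of its own with all barcodes, at a resolution of 0.8, with cell cycle genes kept or with neighbouring genes kept. The Isl1/Ebf1 cluster, with the pattern of striatal projection neurons, had 37.9 CPM (28.2 to 50.01) with 25.4% of 134 cells. The Lhx6/Nkx2-1 cluster, with the pattern of medial ganglionic eminence neurons and leading genes Lhx8 and Lhx6, had 18.2 CPM (13.0 to 24.9) with 11.2% of 304 cells. The last was 0.480 times the Isl1/Ebf1 cluster (0.308 to 0.745), beside 4.04% of 7850 genes at least 2-fold lower. For Nr2f1 and Nr2f2 the intervals of the ratio between these last 2 clusters held 1, with ratios of 0.981 (0.814 to 1.18) and 1.001 (0.775 to 1.30). By their own UMIs, 210 GABAergic neurons with Lhx6 had 19.4 CPM of Sp8, and 378 with Isl1 and no Lhx6 had 83.6 CPM (73.5 to 94.6). The highest Sp8, 124.3 CPM (102.1 to 150), was in 147 with neither gene. Divided this way, across all GABAergic clusters, Nr2f1 was 143 CPM (125 to 163) with Lhx6 against 216 CPM (199.9 to 234) with Isl1 and no Lhx6. Nr2f2 was 86.4 CPM (72.4 to 102.4) against 115 CPM (102.8 to 127). For both receptors these CPM intervals were apart, but those of the shares of cells overlapped. The shares were 36.7% (30.1 to 43.6) against 43.9% (38.8 to 49.1) for Nr2f1, and 21.9% (16.5 to 28.1) against 26.5% (22.1 to 31.2) for Nr2f2. The neurons with neither gene had 181 CPM of Nr2f1 and 113 CPM of Nr2f2.

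Cajal-Retzius cells had 181 CPM of Nr2f1 and 451 CPM of Nr2f2, which was 0.266 times (0.242 to 0.293) and 0.794 times (0.741 to 0.850) the pallial glutamatergic neurons. The first is a drop of at least 2-fold that 1.97% of 9992 genes shared. As given above, the pallial glutamatergic class did not form at every setting and its Sp8 was not told apart from background. Sp8 of the Cajal-Retzius cells was 12.3 CPM (8.54 to 17.2), 4.58 times that of this class (2.32 to 9.72). With 34 and 12 UMIs it was under the minimum of 50 that the tested genes met, of which 6.2% were at least 2-fold higher. The cluster of 128 cells with leading genes Ccno, Mcidas and Trp73 had 98.3 CPM of Nr2f1, 319 of Nr2f2 and 21.3 of Sp8, against 247, 557 and 5.21 CPM in the cluster of 185 cells with leading genes Lhx1 and Calb2. With all neurons as 1 group, their ratios to APs were 1.03 for Nr2f1, 1.74 for Nr2f2 (1.68 to 1.79) and 1.10 for Sp8. None of the 3 was past 2-fold, where 16.8% of 15811 genes were higher and 19.9% lower, and for Nr2f1 and Sp8 the interval held 1.

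Along an axis of 11 neuronal over 9 AP genes, with the neural cells in 10 bins of equal size, Sp8 of the septal explants went from 82.9 CPM in the first bin to 21.5 in the last, with values between 69.7 and 82.9 in the first 6 bins. Nr2f1 went from 0.771 CPM to 9.24, with both of its highest values in the last 2 bins, and Nr2f2 was highest in the ninth bin at 4.89 CPM. In the vesicle, Nr2f1 varied only between 334 and 454 CPM. Nr2f2 was lowest in the seventh bin at 174 CPM and highest in the ninth at 404 CPM, and Sp8 was between 18.9 and 39.7 CPM with its highest value in the seventh bin. The ninth bin was thus the highest for both receptors in the vesicle.

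Positional axes within pallial APs, to which VP APs were added in the vesicle, separated the genes further. Cells were ordered by 10 genes of FGF ligands and FGF response (Fgf8, Fgf17, Fgf18, Etv4, Etv5, Spry1, Spry2, Spry4, Dusp6 and Il17rd) and divided into 5 bins. In the septal explants, Nr2f1 was 15.5, 4.11, 1.80, 0.290 and 0.285 CPM from the lowest to the highest bin, while Sp8 was 49.2, 60.8, 76.4, 85.2 and 104.3 CPM. In the vesicle, where 3 bins had a median score of 0 and are not ordered among themselves, Nr2f1 was 705, 742, 709, 437 and 132 CPM and Nr2f2 292, 285, 189, 136 and 52.0 CPM, and Sp8 was 21.4, 18.5, 23.9, 32.7 and 73.1 CPM. In both libraries the bin with the strongest FGF response was therefore the lowest for Nr2f1 and the highest for Sp8, with intervals apart from those of the lowest bin. The vesicle bins mix VP and pallial APs, which themselves differed in Nr2f1, Sp8 and Etv5. The axis was not run within either class alone, so that in the vesicle it may partly restate that difference. Nr2f2 had under 3 CPM in every bin of the explants, which gave it no order there.

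Ordered instead by medial genes (Emx1, Emx2, Wnt8b, Dmrt3 and Dmrta2) over lateral genes (Pax6, Sfrp2, Tgfa, Fgf7 and Nrg3), the vesicle APs differed in all 3 genes from bin to bin. Most of these axis genes also served to name pallial and VP APs. The axis thus partly restates the difference between these classes. From lateral to medial, Nr2f1 was 769.5, 630.4, 548, 407 and 286 CPM, Nr2f2 286, 225, 186, 100.5 and 70.5 CPM, and Sp8 4.46, 17.6, 33.0, 50.1 and 64.8 CPM. Each step lay outside the counting intervals of its neighbours. In the explants, which hold little lateral tissue, Sp8 ranged from 63.3 to 83.3 CPM on this axis, and Nr2f1 from 1.98 to 8.38 CPM with its highest value in the second bin.

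**Figure D3:**
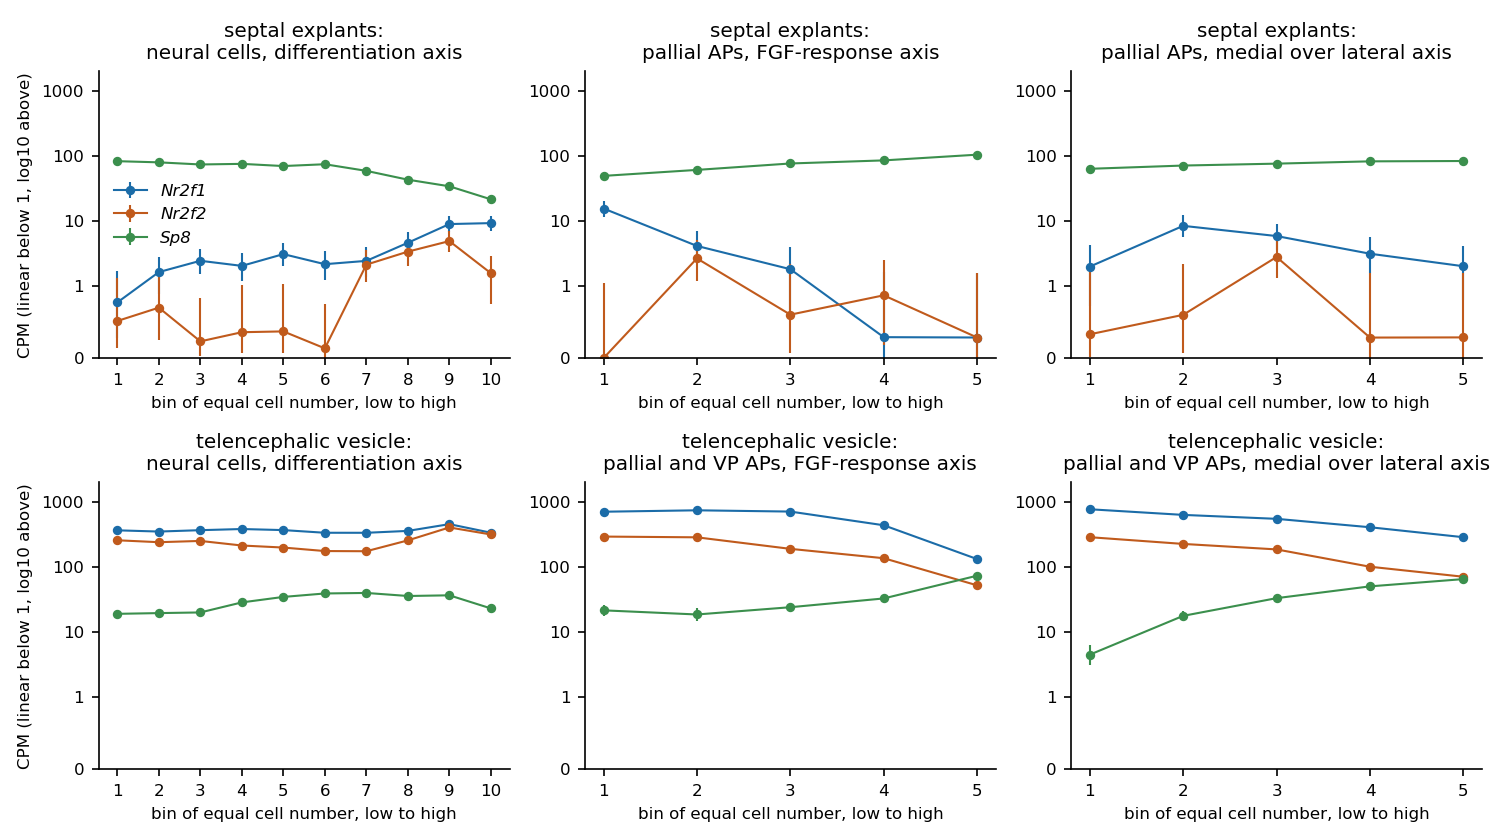
Level of Nr2f1, Nr2f2 and Sp8 in bins of equal cell number along the differentiation axis (left, neural cells), the FGF-response axis (middle) and the medial over lateral axis (right), for the septal explants above and the telencephalic vesicle below. Vertical axes are CPM, linear below 1 and log10 above, and bars are exact Poisson 95% intervals. Along medial over lateral in the vesicle, Nr2f1 and Nr2f2 descend from 769.5 and 286 CPM while Sp8 ascends from 4.46 CPM.

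Co-detection asks whether the same cells hold a pair of genes. The number of cells with both was set against the number expected if detection were unrelated within each cluster and each of 5 depth groups of that cluster, so that a ratio of 1 stands for no relation beyond cluster and depth. In the APs of the vesicle, 2577 of 6429 cells (40.1%) held Nr2f1 and Nr2f2, against 2194 expected, a ratio of 1.18 (1.13 to 1.22). Nr2f1 with Sp8 was found in 692 cells against 792.1 expected, a ratio of 0.874 (0.810 to 0.941), and Nr2f2 with Sp8 in 492 cells against 580.3 expected, a ratio of 0.848 (0.775 to 0.926). Thus the receptors were found together more often, and each of them with Sp8 less often, than cluster and depth gave. With cells thinned to 3500 UMIs the ratios were 1.28, 0.607 and 0.514.

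By class, the ratio of Nr2f1 and Nr2f2 lay above 1 in the neural classes of the vesicle, with intervals that held 1 in VP APs (1.05, where 94.5% of cells held Nr2f1) and hem (1.10), and it reached 1.98 in the Lhx6/Nkx2-1 GABAergic neurons (1.43 to 2.66). In the other GABAergic neurons it was 1.77 (1.41 to 2.20) and 1.69 (1.09 to 2.495), and in Cajal-Retzius cells 1.498 (1.24 to 1.80). Where both genes are common, the ratio can rise little above 1 and its Poisson interval is wide for that range. In VP APs, 449 of the 450 cells with Nr2f2 also held Nr2f1, against 427 expected, and in the hem 231 of 328, against 210 expected. An interval that held 1 there does not show a lack of relation, and sizes of the ratio were not compared between classes. In septal APs, where the UMIs of both were close to the background, nothing was read from the ratio. Sp8 and Nr2f2 were furthest below 1 in differentiating subpallial cells, 13 cells against 28.2 expected (0.462, 0.246 to 0.789), and in BPs, 18 against 35.3 (0.510, 0.302 to 0.806). In pallial APs, Sp8 was below 1 with Nr2f1 (0.888, 0.793 to 0.991) and with Nr2f2 (0.813, 0.694 to 0.945). In the GABAergic neurons rich in Sp8 it was not separable from 1, with 0.966 (0.756 to 1.22) and 0.945 (0.703 to 1.24). Of these neurons, 13.5% held all 3 genes and 26.6% Sp8 alone. By the same count, 52.3% of BPs held both receptors without Sp8 and 44.7% of septal APs Sp8 alone. In pallial APs 15.1% of cells held all 3 genes, 17.5% both receptors without Sp8, 20.3% Nr2f1 alone and 14.97% Sp8 alone. The hem had a larger share with all 3, at 21.5%. Such shares, unlike the ratios, are not set against cluster and depth.

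In the septal explants, 80 APs held Nr2f1 and 19 held Nr2f2, and 0 of 3231 held both, where 0.538 was expected, so that the count could not show a relation at this depth. Of the 80 APs with Nr2f1, 42 also held Sp8 against 50.2 expected, a ratio of 0.836 whose interval held 1 (0.603 to 1.13). In neurons, 5 of 1136 cells held both receptors against 2.63 expected (1.90, 0.617 to 4.44).

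**Figure D4:**
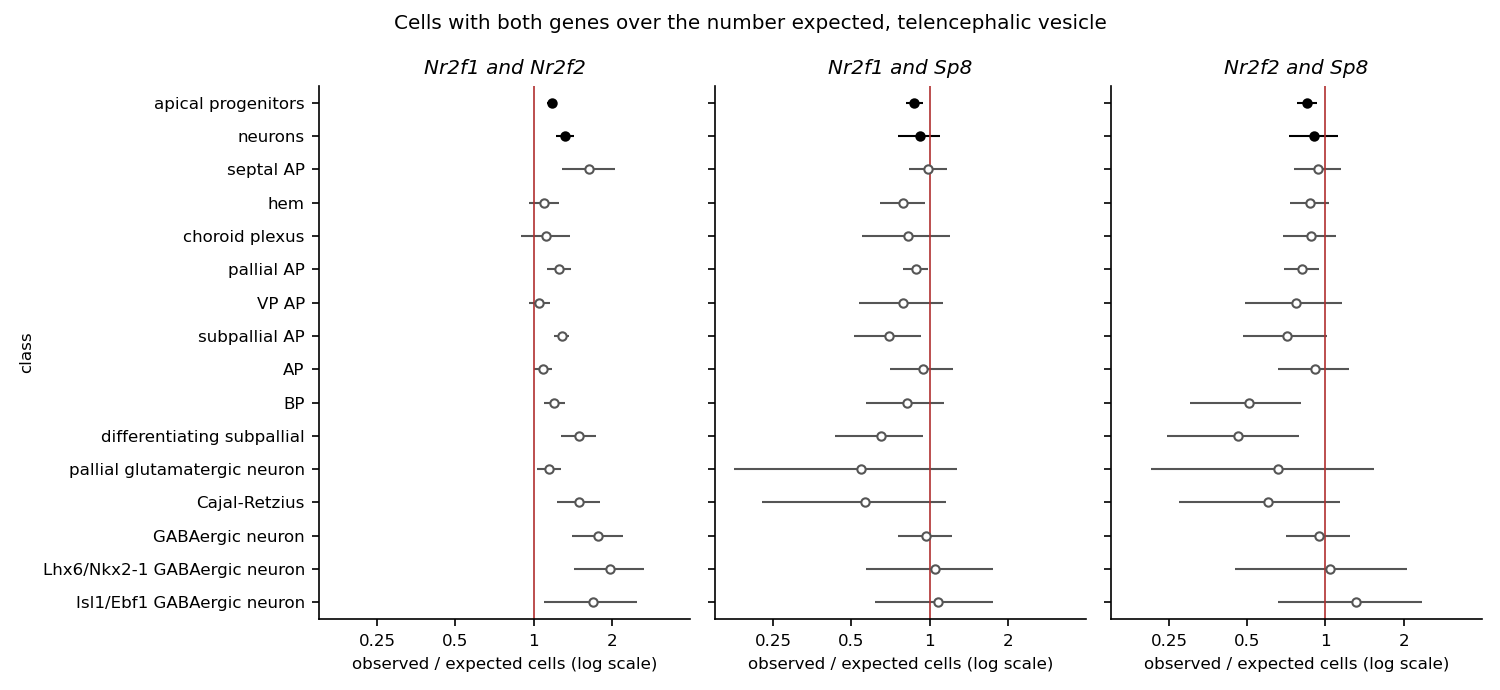
Cells with both genes of a pair over the number expected within cluster and depth group, for each class of the telencephalic vesicle, on a log scale with 1 marked by a line. Filled points are all APs and all neurons, open points are single classes, and bars are 95% intervals from the Poisson interval of the observed number. Nr2f1 and Nr2f2 lie above 1 in APs (1.18) and neurons (1.32), and both pairs with Sp8 lie below 1 in APs (0.874 and 0.848).

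A set of 18 regional and lineage genes gave the company these factors keep in single cells. Among APs of the vesicle, Nr2f1 was found in 32.8% of the 737 cells with Fgf17 and 40.3% of the 766 with Etv4, an FGF target, against 62.7% of all APs, and in 83.9% of the 335 with Dbx1, the homeobox gene of VP and septal progenitors. Nr2f2 was found in 74.6% of APs with Dbx1 and 76.6% of the 559 with the hem gene Lmx1a, against 44.6% of all. Sp8 was found in 65.8% of APs with Fgf17 and 63.7% with Etv4, but in 14.5% with Gsx2 and 14.2% with Nkx2-1, the genes of the lateral and medial ganglionic eminences, against 22.8% of all. Much of this lay between clusters. Within cluster and depth group, the Etv4 ratios were 0.802 for Nr2f1, 0.815 for Nr2f2 and 1.16 for Sp8, those of Zic1, a septal and medial gene, 0.837, 0.849 and 1.10, and those of Dbx1 1.12, 1.28 and 1.002. Of these, the intervals of Dbx1 with Nr2f1 and with Sp8 held 1. For Fgf17 the within-cluster ratios of the receptors were 0.968 and 0.992.

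The explants had 253 APs with Dbx1, and of these 3 held Nr2f1, 0 Nr2f2 and 142 Sp8 (56.1%, against 58.7% of all APs). With Etv4, 11 of 1419 APs held Nr2f1 (0.775%) against 2.48% of all, with a within-cluster ratio of 0.359. In neurons of the vesicle, Sp8 was found in 51.6% of 62 cells with Gsx2, 37.0% of 433 with Isl1 and 11.7% of 213 with Lhx6, against 4.22% of 735 with Tbr1, the gene of early glutamatergic neurons. In neurons of the explants it was found in 46.4% of 28 cells with Gsx2, 40.9% of 313 with Isl1 and 13.0% of 828 with Tbr1, the last of which is below the erythroid share.

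Both receptor genes lie among non-coding RNA genes. A830082K12Rik starts on the opposite strand inside Nr2f1, with 1741 bases in common, and B130024G19Rik inside Nr2f2, with 1826 bases in common. Gm38604 lies 5804 bases from Nr2f1 and Gm29683 14091 bases from Nr2f2, each on the same strand as the receptor gene. Their levels broadly went with those of the neighbouring gene over the clusters of the vesicle, but the same-strand RNAs were low in some clusters rich in the receptor. Pallial glutamatergic neurons had 680.1 CPM of Nr2f1 and 26.7 of Gm38604, and mesenchyme had 311 and 5.23 CPM. The Cajal-Retzius cluster with leading genes Lhx1 and Calb2 had 557 CPM of Nr2f2 and 22.8 of Gm29683. In the Mctp1 and Igfbp5 cluster, A830082K12Rik was 112 CPM, Gm38604 178, B130024G19Rik 118 and Gm29683 102 CPM, and in the Foxb1 and Gdf10 cluster they were 94.9, 63.2, 137 and 187.5 CPM. In the 2 septal AP clusters the same 4 RNAs were between 1.10 and 4.09 CPM. In single APs, Nr2f1 and A830082K12Rik were detected together in 2203 cells against 1840 expected within cluster and depth (1.20, 1.15 to 1.25), and Nr2f2 and B130024G19Rik in 1120 against 867.6 (1.29, 1.22 to 1.37). Their counts are tied to those of the receptors in another way, since each pair overlaps on the genome and the deposited counts do not show how reads in the overlap, or in introns, were assigned. The part of this in the likeness was not tested, for the overlapping RNAs or for those nearby on the same strand. The 4 other annotated RNAs near Nr2f1 and Nr2f2 were scarce, with at most 651 UMIs (3110006O06Rik), and Abcb5, 15247 bases from Sp8, had 81 UMIs.

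**Figure D5:**
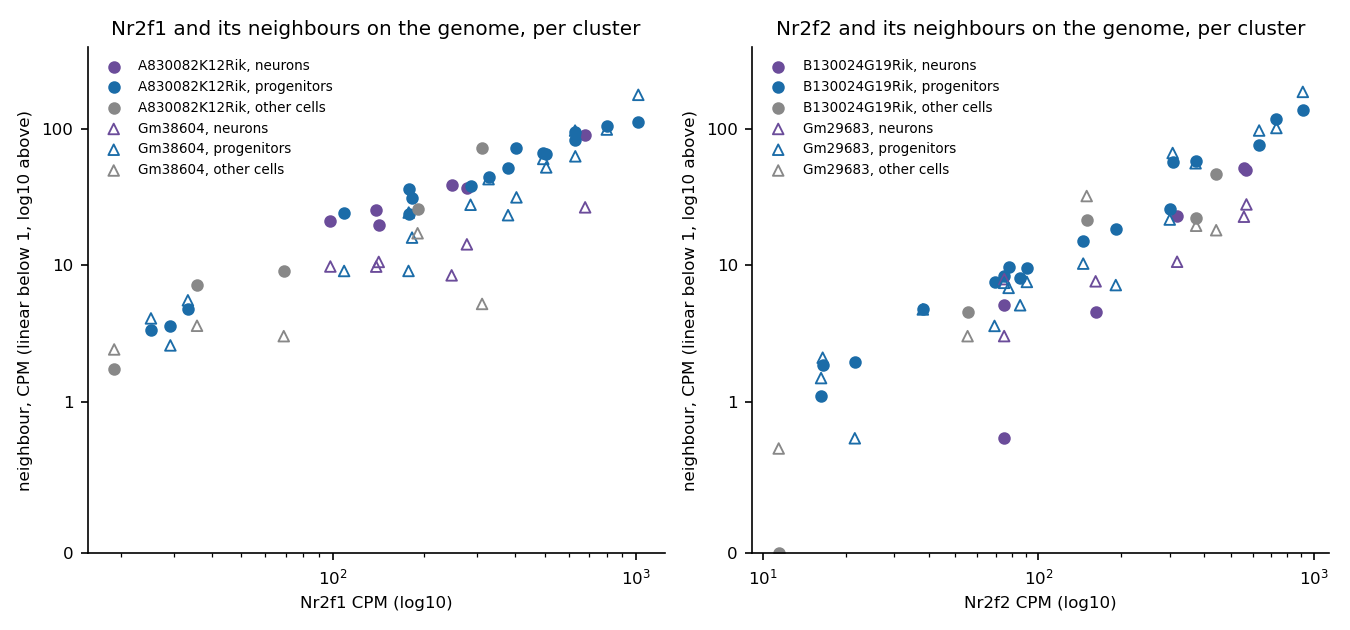
Level of neighbouring RNAs against Nr2f1 (left) and Nr2f2 (right) in the 28 named clusters of the telencephalic vesicle, in CPM on log10 axes, the vertical one linear below 1. Filled circles are the RNAs that overlap the receptor gene on the opposite strand and open triangles those that lie apart from it, coloured by kind of cluster. Points broadly rise together from the septal APs, at 25.2 and 29.2 CPM of Nr2f1, to the cluster with 1018 CPM. Gm38604 is low for its Nr2f1 in mesenchyme, at 5.23 CPM, and in pallial glutamatergic neurons, at 26.7 CPM.

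Likeness of profile was measured by Pearson's r of log2(CPM + 1) over clusters, which share a library, and is a description. Over 28 clusters of the vesicle and 10708 genes that reached 20 CPM in a cluster, Nr2f1 was most like A830082K12Rik (0.984), Gm38604 (0.884), Epha3 (0.778), B130024G19Rik (0.748) and Nr2f2 (0.736). Nr2f2 was most like B130024G19Rik (0.938), Gm29683 (0.901), A830082K12Rik (0.764), Sertad2 (0.738) and Nr2f1. Among the 5 genes most like Sp8 were Gm38505 (0.675), Zic4 (0.653), Mpped2 (0.624) and Commd3 (0.618), and its r with Nr2f1 and Nr2f2 was -0.42 and -0.35. Over 30 clusters of the explants and 9014 genes, Sp8 was most like Sox2 (0.860) and Prdm16 (0.834), genes of APs, and then Pls3, Ildr2 and Dhx32. Nr2f1 had an r of 0.860 with A830082K12Rik, which stayed under 20 CPM in every cluster there. Among the genes that reached it, Nr2f1 was most like Rabgap1l (0.798), Cygb, S100a10, Rarg and Klf6, and Nr2f2 most like Def6 (0.863), Anxa6, Il11ra1, Rnase4 and Sat1. The 30 clusters included the 44 mesenchyme and macrophage cells, which had the highest levels of both receptors, 77.9 and 136.9 CPM. The weight of this non-neural cluster in these r values was not tested.

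The relatives of these factors had other profiles. Nr2f6, a more distant receptor of the family, was between 20.6 and 66.1 CPM in the neural and choroid plexus classes of the vesicle, with an r of -0.08 to Nr2f1 and 0.11 to Nr2f2. Sp9, the closest relative of Sp8, was high in the subpallial lineage, at 458 CPM in the GABAergic neurons rich in Sp8, 332 in the Lhx6/Nkx2-1 cluster, 41.0 in the Isl1/Ebf1 cluster and 216 in differentiating subpallial cells, against 1.11 CPM in the septal APs, where Sp8 was at its highest among APs. Sp5, a Wnt target, was highest in the choroid plexus at 101 CPM and the hem at 81.5 CPM, and at 0.863 CPM in subpallial APs. In the explants, Sp9 was likewise 538 CPM in GABAergic neurons and 0.972 CPM in septal APs.

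The background of areal patterning was read from 22 genes of ligands, FGF response and transcription factors, which do not include the 3 genes. Several of them, such as Fgf8, Fgf17, Emx1, Lhx2, Wnt8b and Lmx1a, served to name the classes, so that their differences are a description. From pallial to septal APs of the vesicle, 11 of the 22 tested were at least 2-fold higher and 7 lower, with a median log2 difference of 0.55 beside 0.03 over all 13637 genes tested, of which 6.83% were higher and 2.49% lower. Fgf8 was 151 against 1.31 CPM, Fgf17 259.5 against 4.16 CPM and Etv4 41.0 against 5.10 CPM, while Emx1 was 16.5 against 80.7 CPM and Lhx2 214 against 573 CPM. Etv4 and Etv5 (53.6 against 19.4 CPM) did not serve to name any class. From pallial to VP APs, 1 of 19 tested was higher and 10 lower, with a median of -1.07 beside -0.01 and beside 3.34% of all genes higher and 3.13% lower, and Etv5 was 5.39 against 19.4 CPM and Wnt8b 3.96 against 113 CPM. From pallial AP to hem, 10 of 21 were higher and 2 lower, with a median of 0.77 beside 0.04 and beside 6.42% of all genes higher and 3.87% lower, and Lmx1a was 289.9 against 3.09 CPM. In the explants, 9 of 20 were higher and 6 lower from pallial to septal APs, with a median of 0.26 beside 0.02 and beside 6.37% of all genes higher and 2.69% lower, and Fgf17 was 1463 against 53.4 CPM.

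Reporter UMIs allowed the pooled explants to be read in parts. YFP marks the E11.5 embryos and tdTomato cells of Dbx1 history in the E12.5 embryos, so that both differ in age as well. Sp8 was 76.8 CPM (73.8 to 80.0) in 1882 APs with at least 3 YFP UMIs, 72.6 CPM (68.3 to 77.0) in 1003 APs without YFP and 72.2 CPM (63.6 to 81.6) in 216 APs with tdTomato, with overlapping intervals. Nr2f1 was 2.01, 2.34 and 2.84 CPM in the same groups, again with overlap. Neurons with tdTomato held 16.7 CPM of Nr2f1 (10.9 to 24.5) against 8.55 CPM (6.99 to 10.4) in neurons without, on 26 and 104 UMIs. By cells this was 14 of 115 (12.2%, 6.82 to 19.6) against 60 of 1021 (5.88%, 4.51 to 7.5), and these intervals overlapped. Neurons without YFP, which take in those of the E12.5 embryos, held 12.6 CPM (9.32 to 16.6), which overlaps the tdTomato value, and neurons with at least 3 YFP UMIs 6.57 CPM (4.89 to 8.64). Which neuron classes the tdTomato neurons came from was not separated, and Nr2f1 differed widely between these classes.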

How the data were processed

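The deposited counts are whole UMIs per gene and barcode, made by the authors with Cell Ranger 2.1.1 for the septal explants and 7.1.0 for the telencephalic vesicle on mm10, and filtered to called cells. YFP and tdTomato sequences were added to the reference of the explants. Whether reads in introns were counted is not given in the sources used here. Each library was analysed on its own with scanpy 1.11.5 in Python 3.11.15. Barcodes more than 3 median absolute deviations from the median mitochondrial share were removed (383 and 1812), then doublets called by Scrublet at 0.8% expected per 1000 barcodes (60 and 764, or 1.10% and 6.13%). After scaling to 10000 UMIs per cell, 2000 variable genes, 30 principal components, 15 neighbours and Leiden clustering at a resolution of 1.5 gave 32 and 31 clusters. A cluster was named where at least 3 markers were found in at least 5% of its cells and at 1.5 times the mean of the other clusters, with a check of its 10 leading genes. A cluster that met a regional AP list but kept no region was named AP without a check of the general AP list. The Foxb1 and Gdf10 cluster of the vesicle met 2 of the 8 general AP markers. This rule was set after clusters had been seen, and the genes, lists and markers were chosen with earlier results of these data known. Named were the 3 genes, their relatives Nr2f6, Sp9 and Sp5, genes within 20 kb, 22 areal and 18 partner genes, and per gene the 5 most alike profiles, of which 1 is not reported here. The 2 unnamed clusters of the explants (182 cells) and 3 of the vesicle (971 cells) entered no class. CPM carry exact Poisson intervals, shares exact Clopper-Pearson intervals and folds exact conditional intervals (scipy 1.17.1), all for counting error only. A gene entered a comparison where both groups together held 50 UMIs of it or more, and a 2-fold difference was the threshold. For thinned shares each cell was reduced to 8000 or 3500 UMIs, leaving out 511 and 1144 shallower cells. The alternatives were other filters, resolutions, seeds, gene sets for clustering and scalings. The fold comparison was tested on simulated data with known changes.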

Additional observations from a re-analysis of the deposited data

Results flagged for a closer look

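The ratio of Nr2f2 between subpallial and pallial APs was 0.0737 in the explants but 2.19 in the vesicle, which are opposite directions. The difference between the libraries was not tested. The first ratio rested on 1 UMI against 15 UMIs in 7 pallial APs. Of these 15, 4 lay in 4 cells without YFP, 1 in 1 cell with at least 3 YFP UMIs, and the rest in cells between these limits. The ratio was 0.980 among cells with at least 3 YFP UMIs, that is 1 UMI in each group. The second rested on 6608 and 2425 UMIs and was 0.668 when the genes within 20 kb of the 3 genes were kept in the clustering, an alternative chosen after seeing the data. In the vesicle, the largest 3 subpallial clusters had 75.1, 85.8 and 69.3 CPM of Nr2f2, and the pallial AP clusters 78.0 and 90.8 CPM.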

How the results depend on the processing

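Of 234 recomputed values, 154 stayed within the counting interval, 78 moved and 2 turned direction. The cause was not tested. Counts of genes were not among the 234 and were judged by a limit of 1.5 times. No paired analysis was possible because each condition is 1 pooled library. Values below give, in order, the CPM in APs, the ratio of neurons to APs and the ratio of subpallial to pallial APs, as far as they moved.

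In the septal explants, with all barcodes Nr2f2 was 0.886 CPM in APs and the neuron ratio of Sp8 was 0.410. With doublets kept, Sp8 was 78.6 CPM in APs, with a neuron ratio of 0.414 and a subpallial ratio of 0.767. At a resolution of 0.8 the ratios of Sp8 were 0.405 and 0.838, and the subpallial ratio was 0.741 with another seed and 0.797 with cell cycle genes kept. Among cells with at least 3 YFP UMIs, the neuron ratio of Nr2f1 was 3.26 and the subpallial ratio of Nr2f2 0.980. Without mitochondrial, ribosomal protein and haemoglobin genes, Nr2f1 was 2.94 and Sp8 100.1 CPM in APs. Thinned, the co-detection ratio of Nr2f1 and Sp8 was 0.594.

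In the telencephalic vesicle, with all barcodes Nr2f1 was 355.5 CPM with a subpallial ratio of 0.773, Nr2f2 was 215 CPM with ratios of 1.481 and 1.66, and the neuron ratio of Sp8 was 0.952. With doublets kept, Nr2f1 was 354.0 CPM with ratios of 1.14 and 0.835, Nr2f2 was 207 CPM with a subpallial ratio of 2.05, and the neuron ratio of Sp8 was 0.842. At a resolution of 0.8, Nr2f1 was 339 CPM with ratios of 1.105 and 0.826, Nr2f2 was 204.0 CPM with a subpallial ratio of 1.94, the neuron ratio of Sp8 was 0.715 and the co-detection ratio of Nr2f1 and Nr2f2 was 1.225. At 2.5, the ratios were 1.16 and 0.850 for Nr2f1 and 0.981 and 0.135 for Sp8, and the neuron ratio of Nr2f2 was 1.94. With another seed, Nr2f1 was 389 CPM with a neuron ratio of 0.888 and a subpallial ratio that turned to 1.06, Nr2f2 was 224 CPM with ratios of 1.43 and 3.05, and Sp8 was 27.7 CPM. With cell cycle genes kept, Nr2f1 was 389.9 CPM with ratios of 0.953 and 0.718, Nr2f2 was 227.0 CPM with 1.54 and 1.38, and Sp8 was 27.3 CPM with 0.883 and 0.0911. With neighbouring genes kept, an alternative chosen after seeing the data, the subpallial ratio of Nr2f2 turned to 0.668 and that of Nr2f1 was 0.582, the neuron ratio of Nr2f2 was 1.65, and the ratios of Sp8 were 0.747 and 0.0972. As mean CPM per cell, Nr2f1 was 345 CPM with a subpallial ratio of 0.997, Nr2f2 was 209 CPM with 1.59 and 2.33, and Sp8 was 26.2 CPM with a neuron ratio of 1.39. Without mitochondrial, ribosomal protein and haemoglobin genes, Nr2f1 was 438.5 CPM with a neuron ratio of 0.979, Nr2f2 248.5 CPM with 1.65, and Sp8 39.2 CPM.

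Co-detection ratios of Nr2f1 with Nr2f2, Nr2f1 with Sp8 and Nr2f2 with Sp8 in APs of the vesicle were 1.24, 0.773 and 0.761 with at least 2 UMIs of each gene, 1.28, 0.607 and 0.514 thinned, and 1.43, 0.754 and 0.754 when expected from all APs together. No VP class formed in the vesicle at a resolution of 0.8, with another seed or with cell cycle genes kept, no pallial glutamatergic class at 0.8 and with another seed, and no cluster of GABAergic neurons outside the Lhx6/Nkx2-1 and Isl1/Ebf1 classes with all barcodes, at 0.8, with cell cycle genes kept or with neighbouring genes kept. The neuron ratio of Sp8 in the vesicle, from 0.715 to 1.39, thus had no stable direction, while its subpallial ratio was 0.0681 and between 0.0911 and 0.135 in the alternatives that moved it. At a 1.5-fold rather than a 2-fold difference, genes higher and lower in neurons were 3580 and 3194 (2269 and 2109) in the explants and 4049 and 4765 (2659 and 3139) in the vesicle, and in subpallial over pallial APs 1009 and 628 (486 and 315) and 1623 and 1174 (837 and 538). With at least 20 UMIs, 745 genes were higher in subpallial APs of the explants. In the explants, values of Nr2f1 and Nr2f2 rest on 318 and 209 UMIs in all.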
